A study of Rattus norvegicus with 6 samples.

Results

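The genes described here encode the SNARE proteins, the synaptotagmins and the regulators of exocytosis in rat insulinoma INS-1 cells that carry a Dox-inducible misfolded proinsulin. They were chosen by symbol from the gene annotation of the array (the Stx, Vamp, Snap, Syt, Sytl, Stxbp, Cplx, Unc13 and Rims families, the disassembly factors Nsf, Napa, Napb and Napg, and Ykt6, Sec22b, Bet1, Gosr1, Gosr2, Vsnl1, Rph3al and Cadps). The rule refers to no measured value, but the genes and lists were set with earlier results of these data known. Of the 12603 genes with a probeset of their own, 62 met this rule, and they were read by 91 probesets. By role, 39 were listed with granule exocytosis, 7 as SNAREs between the endoplasmic reticulum (ER) and the Golgi, 11 with endosomes and the trans-Golgi, and 4 with taking SNARE complexes apart. The remaining one, Snap91, encodes the clathrin adaptor AP180, which is caught by its symbol and is not a SNARE. These lists are coarse, and Stx17 and Vamp5 of the list of 11 are not confined to endosomes and the trans-Golgi.

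SNAREs are small membrane-anchored proteins of which one set sits on a vesicle and its partners on the target membrane, and their zippering into a bundle drives fusion. Each step of the secretory route has its own set. Stx5, Bet1, Sec22b and Gosr2 serve transport between ER and Golgi, whereas Stx1a, Snap25 and Vamp2 fuse the insulin granule with the plasma membrane, where synaptotagmins sense calcium and Munc18, Munc13, RIM and CAPS proteins dock and prime the granule. IRE1 is an ER stress sensor whose RNase splices Xbp1 mRNA, and the resulting factor XBP1 is known for raising genes of the early secretory pathway. 4μ8c blocks the IRE1 RNase.

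All 6 arrays came from 1 clonal line of INS-1 cells, in which Dox turns on Ins2 with the C96Y substitution (the change of the Akita mouse) fused to GFP. The Dox+4μ8c group received both agents, with 4μ8c at 5 μM, the Dox group received Dox alone, and the untreated group carried the silent transgene, with 2 arrays per group, 1 in each of 2 independent experiments. The treatment lasted 48 h, and the labels give Dox at 4 μg/ml while the methods of the study give a lower dose. The labels describe the arrays of a group as biological replicates. The p-values rest on how far the treatment differences varied between these 2 experiments, together with a variance shared over genes. All 6 cultures carried the transgene, so that effects of the drug Dox and of the protein it induces cannot be told apart, and 4μ8c without Dox was not analysed here.

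The deposited values are log2 expression centred per probeset, so that a value is a difference and not a level. In experiment 1 the middle of the 3 arrays stands at exactly 0 for every probeset, and 25.5% of probesets stand at exactly 0 on all 3 arrays, among them those of 10 of the 62 genes (a gene counts here when its averaged value is 0), while 13 genes are at 0 on 2 of these arrays. In experiment 2 the middle array stands at 0 for 0.836% of probesets, and 0.0039% are at 0 on all 3 arrays. The zero point of experiment 2 is thus not the median of its 3 arrays and may rest on arrays not analysed here, so that its values can be read only against each other. The Dox array of experiment 2 stood apart, with an SD over probesets of 0.176, against 0.0502 to 0.117 on the other 5 arrays. For the 4 poly-A spike-in transcripts, the signal at the 5′ end minus that at the 3′ end was taken relative to the untreated array of the same experiment. The median over the 4 was -0.0225 and -0.277 in Dox+4μ8c and -0.0928 and -0.397 in Dox, and its part in the results was not tested. As a check of the labels, the IRE1-dependent chaperone gene Dnajb9 had 0.00 and -0.01 in Dox+4μ8c, 0.94 and 1.15 in Dox, and -0.42 and 0.01 in untreated cells of experiments 1 and 2. It rose by 1.25 with Dox (limma, adjusted p = 0.0024) and was lower by 1.05 with 4μ8c added (log2 change -1.05, adjusted p = 0.013), and Trib3, a target of the PERK branch, rose by 2.88 with Dox (adjusted p = 0.00016, and 0.084 without the block) and differed by -0.08 between Dox+4μ8c and Dox (adjusted p = 0.76). The insulin genes Ins1 and Ins2 had Dox differences of -0.03 and -0.13, neither past the test, and whether the Ins2 probeset reads the transgene is not given in the sources used here, so that its induction was not checked on these arrays.

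With Dox, 5 of the 62 genes changed. Bet1 and Stx18, SNAREs of the early pathway, and Syt4, a synaptotagmin, rose in Dox-treated cells over untreated cells, and Sytl4 and Vsnl1, which act at the granule and in calcium signalling, fell. These 5 of 62 genes are 8.06%, against 6.43% of all genes called in this comparison, so that the share is near the background. By direction, 3 of 62 rose, against 4.42% of all genes, and 2 of 62 fell, against 2.01%. The median log2 change of the 62 was 0.02, beside 0.01 over all genes. The test was limma's moderated test with the experiment as a block and Benjamini-Hochberg adjustment over all 12603 genes at an adjusted p of 0.05. Without the block 2 were called, Bet1 and Stx18, beside 3.49% of all genes. The set called also varied with 1 array left out, but such a fit has 1 array in a group and its counts are not given.

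The comparison of Dox+4μ8c with Dox asks how expression in Dox-treated cells differed when the IRE1 inhibitor was present. Bet1, Stx18 and Sec22b fell when 4μ8c was added and no other gene of the 62 passed the test in either direction. These 3 genes, all of the ER-Golgi group, stand against 1.61% of all genes called lower and 1.79% called in either direction. The count was 2 without the block (1.13% of all genes). The 3 calls did not hold when 1 of the Dox+4μ8c arrays was left out, and the set called varied with the other arrays. Such fits have 1 array in a group. Between Dox+4μ8c and untreated cells only Syt4 passed the test, 1 of 62 against 2.3% of all genes called, 1.17% higher and 1.13% lower. That count was 0 without the block. The call of Syt4 in this comparison did not hold with any untreated or Dox+4μ8c array left out, and the set called also varied with the Dox arrays.

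**Figure D1:**
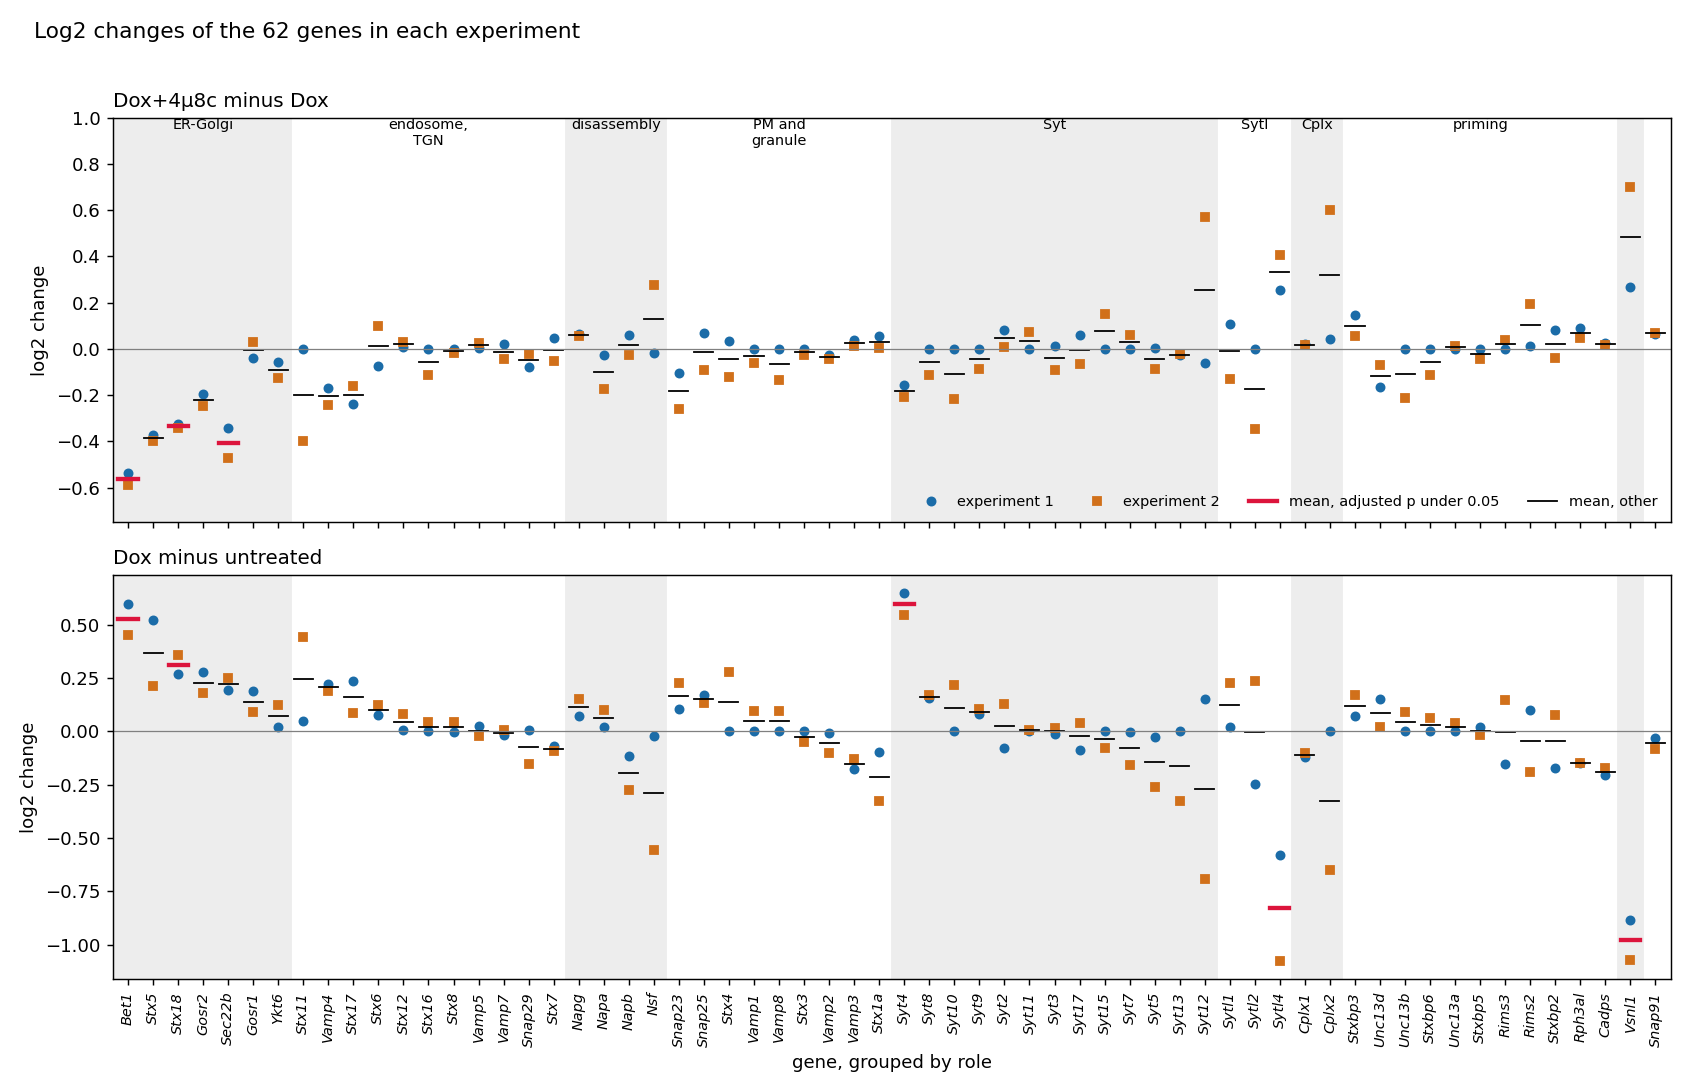
Log2 difference for each of the 62 genes, ordered by role, between Dox+4μ8c and Dox (top) and between Dox and untreated cells (bottom). Bars show the fitted difference, in crimson where the limma adjusted p was under 0.05, which holds for 3 genes at the top and 5 at the bottom.

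Of the 7 ER-Golgi SNAREs, 2 were called higher with Dox, beside 4.42% of all genes, and 3 were called lower when 4μ8c was added, beside 1.61%. All 7 were above 0 in Dox over untreated cells in both experiments, as were 26.6% of all genes, with a median of 0.23 (0.27 in experiment 1 and 0.21 in experiment 2), and 2 of them, Bet1 and Stx18, passed the test. In Dox+4μ8c against Dox, 6 of 7 were below 0 in both experiments, as were 26.9% of all genes, with a median of -0.33 (-0.33 and -0.34), and 3 passed the test. Such shares over all genes are lowered by ties in experiment 1. There 25.2% of all genes had a Dox difference of exactly 0 and 27.8% a 4μ8c difference of exactly 0, against 0 of the 7. Against untreated cells the Dox+4μ8c median was -0.02 and none was called by limma. At an unadjusted p under 0.05, 1 was higher and 1 lower, beside 790 and 1153 of all 12603 genes. The promoters of the 3 called genes and of Stx5, the syntaxin that pairs with Bet1 and Sec22b, are shown because the IRE1 product XBP1 is known to bind DNA with a CCACG or ACGT core. Each runs 5′ to 3′ from 250 bases before to 50 bases after the RefSeq start of the gene in the rat assembly GRCr8, with ACGT, and CCACG on either strand, in capitals. The Bet1 window is chr4:33081113-33081412 on the minus strand, that of Stx18 is chr14:76973677-76973976 on the minus strand, that of Sec22b is chr2:188188533-188188832 on the plus strand and that of Stx5 is chr1:215066282-215066581 on the plus strand.
Bet1: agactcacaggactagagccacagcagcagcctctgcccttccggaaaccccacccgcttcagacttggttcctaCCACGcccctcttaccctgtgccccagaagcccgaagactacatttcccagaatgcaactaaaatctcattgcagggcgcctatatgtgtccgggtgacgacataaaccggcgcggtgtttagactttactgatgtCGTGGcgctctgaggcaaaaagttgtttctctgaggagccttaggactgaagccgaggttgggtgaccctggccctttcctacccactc
Stx18: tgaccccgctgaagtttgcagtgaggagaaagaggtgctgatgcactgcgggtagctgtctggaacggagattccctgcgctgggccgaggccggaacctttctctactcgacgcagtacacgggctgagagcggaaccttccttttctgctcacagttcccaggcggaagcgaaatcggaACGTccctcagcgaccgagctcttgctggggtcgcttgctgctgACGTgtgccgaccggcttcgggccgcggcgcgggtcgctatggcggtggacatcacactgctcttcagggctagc
Sec22b: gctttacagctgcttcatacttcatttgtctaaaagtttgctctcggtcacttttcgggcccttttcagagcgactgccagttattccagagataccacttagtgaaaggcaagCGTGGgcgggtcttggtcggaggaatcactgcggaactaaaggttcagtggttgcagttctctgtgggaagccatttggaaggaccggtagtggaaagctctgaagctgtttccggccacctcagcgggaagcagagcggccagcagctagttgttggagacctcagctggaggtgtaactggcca
Stx5: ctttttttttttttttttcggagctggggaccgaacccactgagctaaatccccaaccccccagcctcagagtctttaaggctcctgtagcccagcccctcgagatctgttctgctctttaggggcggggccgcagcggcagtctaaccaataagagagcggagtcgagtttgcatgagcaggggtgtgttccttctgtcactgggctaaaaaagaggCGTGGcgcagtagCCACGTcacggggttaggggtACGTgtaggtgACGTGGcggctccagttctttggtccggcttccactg

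Searched on both strands, the Bet1 window holds 2 CCACG and 0 ACGT, that of Stx18 holds 0 and 2, that of Sec22b 1 and 0, and that of Stx5 3 and 3. The longer TGACGTGG, which contains both cores, was found 2 times in the Stx5 window and in 0 of the other 6 ER-Golgi genes. CCACG was present in a promoter of 6 of the 7 ER-Golgi genes, which have 7 windows, and of 15 of the 29 granule genes with an entry, which have 31 windows, while over all 33469 rat promoters the share of windows was 31.6%. ACGT was present in 4 of 7 and in 9 of 29, beside 31.6%. TGACGTGG was in 1 of 7 and 0 of 29, beside 0.595% of all. The longer ER stress elements ERSE and ERSE-II were in 0 of the 7 and 0 of the 29, and in 0.0657% and 0.0508% of all promoters. These are matches of letters in short windows and nothing on binding was measured.

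Bet1, a SNARE that joins Stx5, Gosr2 and Sec22b on ER-derived vesicles, had 0.00 and -0.07 in Dox+4μ8c, 0.54 and 0.52 in Dox, and -0.06 and 0.07 in untreated cells of experiments 1 and 2. Dox was highest within each experiment, while the order of Dox+4μ8c and untreated cells differed between the experiments. Bet1 rose by 0.53 with Dox (SE 0.06, n = 2 per group, limma adjusted p = 0.0067), a 1.44-fold change, and fell by 0.56 with 4μ8c added (SE 0.06, adjusted p = 0.018). Its Dox+4μ8c arrays differed from untreated by -0.04 with a 95% confidence interval of -0.19 to 0.11. Its 2 probesets ran alike, with Dox over untreated differences of 0.61 and 0.49 on one and 0.59 and 0.41 on the other.

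Stx18, the syntaxin of the ER that receives vesicles returning from the Golgi, had -0.06 and 0.01 in Dox+4μ8c, 0.27 and 0.35 in Dox, and 0.00 and -0.01 in untreated cells. Again Dox was highest within each experiment. Stx18 rose by 0.31 with Dox (SE 0.05, limma adjusted p = 0.019) and fell by 0.33 with 4μ8c added (SE 0.05, adjusted p = 0.034). Both calls were lost when any array other than Dox replicate 1 was left out, with adjusted p of 0.052 to 0.15 with Dox and 0.055 to 0.43 after 4μ8c.

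Sec22b, the vesicle SNARE shared by both directions of ER-Golgi traffic, had -0.15 and -0.12 in Dox+4μ8c, 0.19 and 0.35 in Dox, and 0.00 and 0.11 in untreated cells. Within each experiment Dox+4μ8c was lowest and Dox highest. Sec22b fell by 0.41 with 4μ8c added (SE 0.05, limma adjusted p = 0.024, and 0.064 without the block), and its differences of 0.22 between Dox and untreated cells and of -0.19 between Dox+4μ8c and untreated cells did not pass the test (adjusted p = 0.066 and 0.15).

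Stx5, the syntaxin of the early Golgi, had 0.00 and -0.09 in Dox+4μ8c, 0.37 and 0.30 in Dox, and -0.15 and 0.09 in untreated cells. Dox was highest within each experiment here too, while the fitted differences of 0.37 over untreated cells and -0.38 after 4μ8c had limma adjusted p of 0.067 and 0.12. Its probesets differed, since one gave Dox over untreated differences of 0.48 and 0.38 and the other, which can also read related transcripts, 0.56 and 0.04. Without probesets of the second kind, Stx5 changed by 0.43 and -0.43 (adjusted p = 0.007 and 0.021).

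Gosr2, also called membrin, had 0.00 and -0.03 in Dox+4μ8c, 0.20 and 0.21 in Dox, and -0.08 and 0.03 in untreated cells, with limma adjusted p of 0.067 for the Dox difference of 0.23 and 0.15 for the 4μ8c difference of -0.22. Gosr1, a SNARE within the Golgi stack, had 0.00 and 0.05 in Dox+4μ8c, 0.04 and 0.02 in Dox, and -0.15 and -0.07 in untreated cells. Averaged over its 3 probesets, Gosr1 thus stood near the Dox level with 4μ8c present, and the difference of -0.0039 between Dox+4μ8c and Dox had an adjusted p of 0.98. The probesets differed, at -0.12 and 0.33, 0.00 and 0.0029, and 0.00 and -0.24 in experiments 1 and 2 for this comparison. Ykt6, a lipid-anchored SNARE, had differences of 0.07 with Dox and -0.09 after 4μ8c, neither past the test (adjusted p = 0.47 and 0.57).

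**Figure D2:**
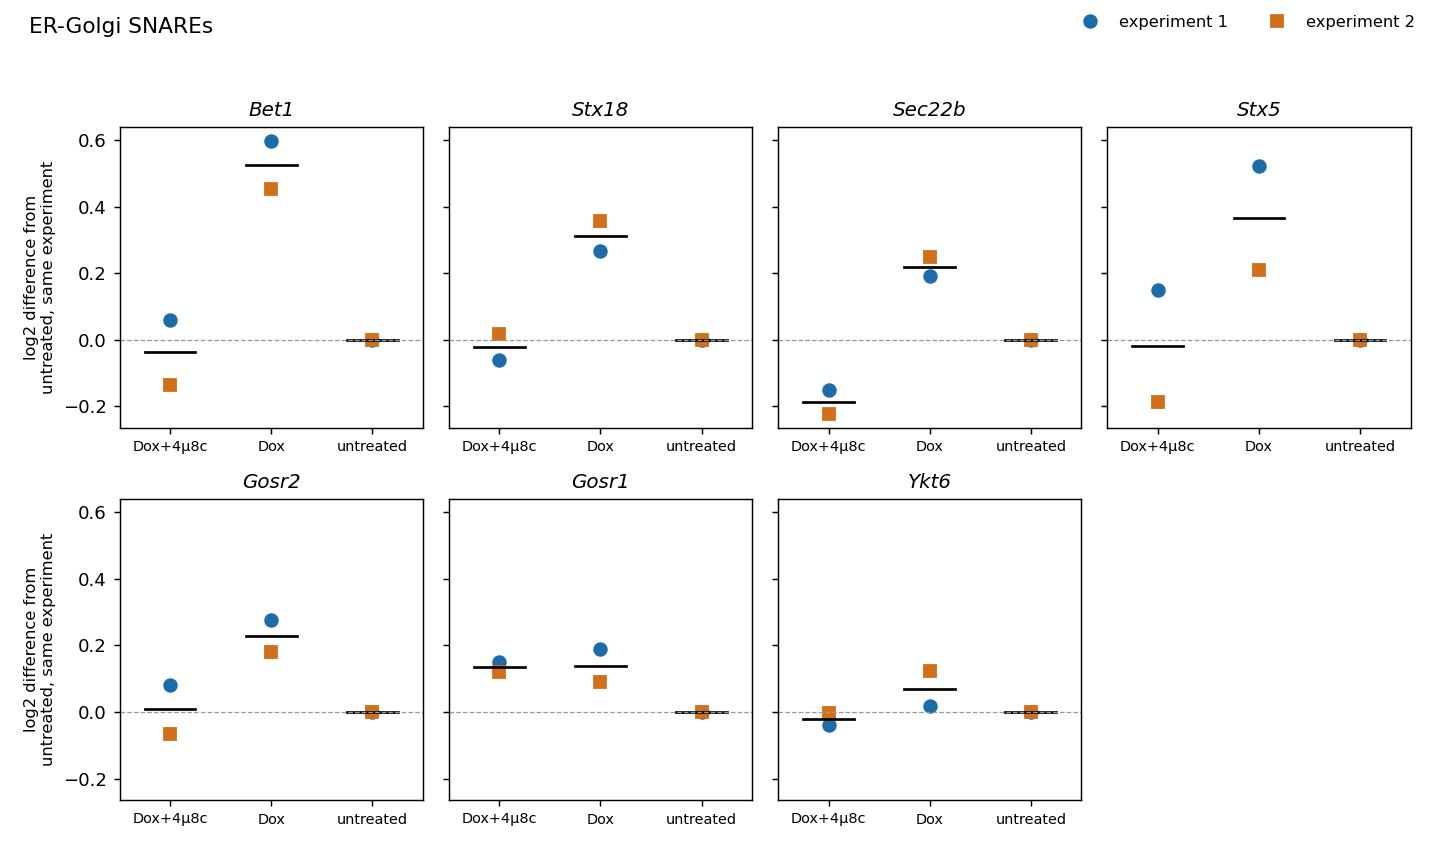
Log2 difference of each array from the untreated array of the same experiment for the 7 ER-Golgi SNARE genes, with Dox+4μ8c left of Dox and untreated. Circles are experiment 1, squares experiment 2 and black bars the group mean. For Bet1, Stx18, Sec22b, Stx5 and Gosr2 both Dox points lie above both Dox+4μ8c points.

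Genes that work with these SNAREs, none of them among the 62, were read from a separate list of 14 ER-Golgi partners. With Dox 4 rose and 0 fell, beside 4.42% and 2.01% of all genes, and 8 were above 0 in both experiments, beside 26.6%. Uso1, the tether p115, had 0.00 and 0.02 in Dox+4μ8c, 0.34 and 0.42 in Dox, and -0.23 and -0.02 in untreated cells, and rose by 0.51 (limma adjusted p = 0.0067). Rint1, of the ER tether that binds Stx18, rose by 0.61 (adjusted p = 0.014), Scfd1, the Sly1 protein that holds Stx5, by 0.41 (adjusted p = 0.013) and the Golgi SNARE Bet1l by 0.27 (adjusted p = 0.031). With 4μ8c added, Rint1, Scfd1 and Uso1 fell by 0.68, 0.38 and 0.37 (adjusted p = 0.025, 0.036 and 0.042). After 4μ8c 3 of 14 were called lower, beside 1.61% of all genes. The call of Rint1 with Dox did not hold without the block (adjusted p = 0.057). The 3 calls after 4μ8c did not hold without the block, nor when 1 of the Dox+4μ8c arrays was omitted.

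The 39 granule exocytosis genes had no shared direction. With Dox, 1 was called higher and 2 lower, beside 4.42% and 2.01% of all genes. The median was -0.0020, and 8 were above and 10 below 0 in both experiments, beside 26.6% and 24.8% of all genes. For 34 of the 39 the 95% confidence interval of the Dox difference lay within 1.5-fold either way, as it did for 97% of all genes, and the other 5 were Syt4, Vsnl1, Sytl4, Cplx2 and Syt12. In Dox+4μ8c against Dox the median was -0.01 and limma called 0 of 39, beside 1.79% of all genes. At an unadjusted p under 0.05 in limma, 2 of the 39 were higher and 2 lower, beside 351 and 1064 of all 12603 genes. Of these 39 genes, 12 had a Dox difference of exactly 0 in experiment 1 and 14 a 4μ8c difference of exactly 0, so that for them experiment 2 carries the estimate.

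The medians of the granule list and of the ER-Golgi list differed by -0.23 with Dox (granule minus ER-Golgi, -0.27 in experiment 1 and -0.19 in experiment 2) and by 0.32 in Dox+4μ8c against Dox (0.33 and 0.30). This is a description of 2 lists in 2 experiments, and no test was made on it. Leaving out 1 array at a time gave -0.27 to -0.18 and 0.28 to 0.32. In experiment 1 the granule median was 0 in both comparisons, so that the difference there is the ER-Golgi median with its sign reversed. The medians over all genes were 0.01 with Dox and -0.01 in Dox+4μ8c against Dox, near those of the granule list.

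**Figure D3:**
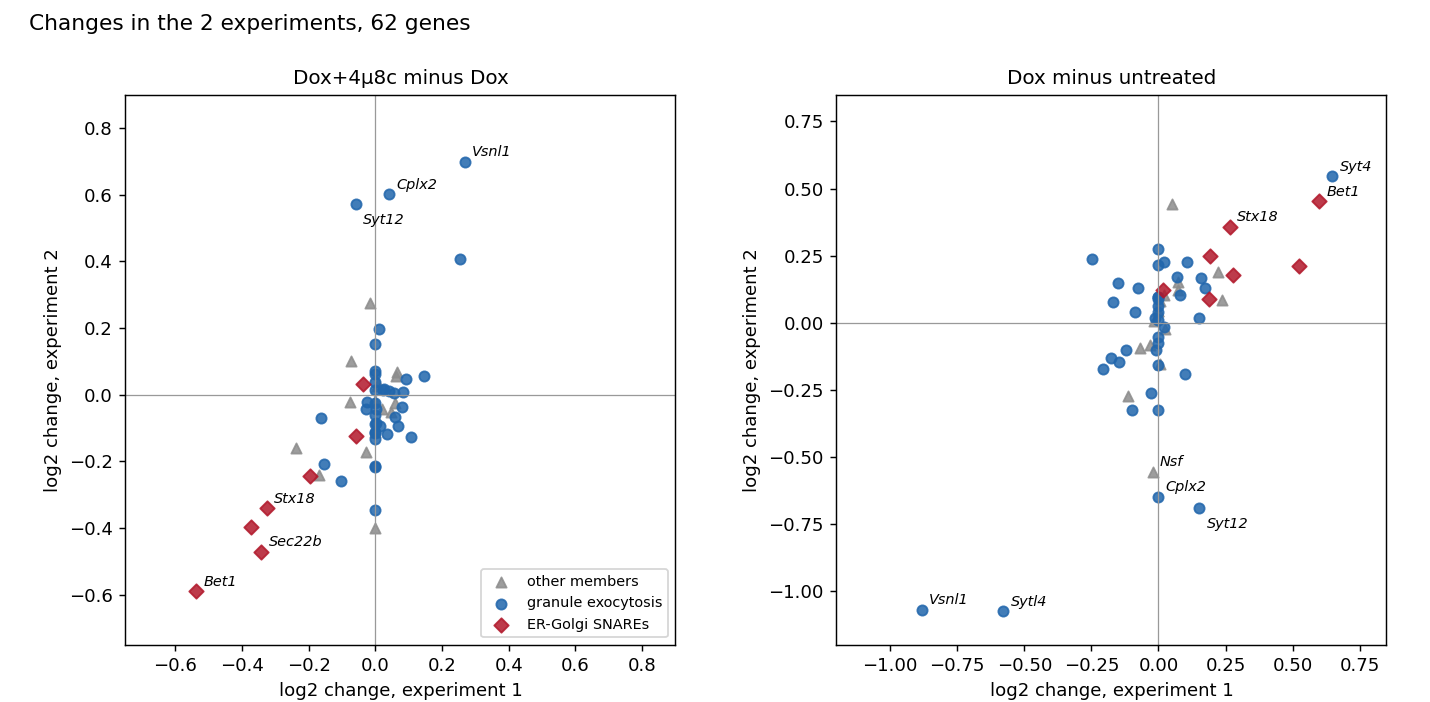
Log2 difference in experiment 1 (x axis) and experiment 2 (y axis) for the 62 genes, for Dox+4μ8c minus Dox and for Dox minus untreated. Diamonds are ER-Golgi SNAREs, circles granule exocytosis genes and triangles the others. The ER-Golgi genes lie below 0 in both experiments in the first panel, apart from Gosr1, and above 0 in the second, and for Dox over untreated Cplx2 lies at 0.00 in experiment 1 and -0.65 in experiment 2, and Syt12 at 0.15 and -0.69.

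Syt4 was the only gene of the granule list called higher with Dox when all arrays were used. It encodes a synaptotagmin found on secretory vesicles, and had 0.00 and 0.15 in Dox+4μ8c, 0.15 and 0.36 in Dox, and -0.49 and -0.18 in untreated cells. Within each experiment Dox was highest, Dox+4μ8c lay between and untreated was lowest. Syt4 rose by 0.60 with Dox (SE 0.06, 1.512-fold, limma adjusted p = 0.0035) and was also higher in Dox+4μ8c than in untreated cells by 0.42 (SE 0.06, adjusted p = 0.023), with adjusted p of 0.059 and 0.19 without the block. The difference of -0.18 between Dox+4μ8c and Dox did not pass the test (adjusted p = 0.25). Its 2 probesets differed in size, at 1.06 and 0.63 on one and 0.24 and 0.46 on the other for Dox over untreated cells.

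Vsnl1, the neuronal calcium sensor VILIP-1, had the largest difference of the 62 genes with Dox. Its values were 0.00 and -0.19 in Dox+4μ8c, -0.27 and -0.88 in Dox, and 0.61 and 0.19 in untreated cells. Within each experiment untreated was highest and Dox lowest. Vsnl1 fell by 0.98 with Dox (SE 0.10, 0.508-fold, limma adjusted p = 0.0045, and 0.078 without the block). Dox+4μ8c stood 0.48 above Dox and differed from untreated by -0.49, neither past the test (adjusted p = 0.086 and 0.067).

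Sytl4, known as granuphilin, is the Rab27a effector that docks insulin granules at the plasma membrane. It had 0.00 and -0.33 in Dox+4μ8c, -0.25 and -0.74 in Dox, and 0.32 and 0.33 in untreated cells. Untreated was highest and Dox lowest within each experiment. Sytl4 fell by 0.83 with Dox (SE 0.11, 0.564-fold, limma adjusted p = 0.011, and 0.065 without the block), and the differences of 0.33 between Dox+4μ8c and Dox and of -0.50 between Dox+4μ8c and untreated cells had adjusted p of 0.31 and 0.092. It was read by 1 probeset, which can also read other transcripts of the gene.

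Of the 9 plasma membrane and granule SNAREs none was called by limma in any comparison. At an unadjusted p under 0.05, 2 were higher and 2 lower with Dox, beside 1412 and 1064 of all 12603 genes. After 4μ8c 0 were higher and 1 lower, beside 351 and 1064. The 1 lower was Snap23, with differences of 0.17 with Dox and -0.18 after 4μ8c (adjusted p = 0.16 and 0.25). The interval lay within 1.5-fold for 9 of 9 in each comparison. Over all genes it did so for 97% with Dox, 98.4% after 4μ8c and 98.6% between Dox+4μ8c and untreated cells. Stx1a, the target membrane syntaxin, had 0.00 and -0.05 in Dox+4μ8c, -0.06 and -0.05 in Dox, and 0.04 and 0.27 in untreated cells, a Dox difference of -0.21 (95% confidence interval -0.39 to -0.03, adjusted p = 0.19). Its adjusted p was 0.047, with a difference of -0.28, when probesets at exactly 0 on all 3 arrays of experiment 1 were left out. Snap25, its partner, had 0.07 and -0.01 in Dox+4μ8c, 0.00 and 0.08 in Dox, and -0.17 and -0.05 in untreated cells, a Dox difference of 0.15 (adjusted p = 0.25). Vamp2, the granule SNARE, had -0.03 and -0.07 in Dox+4μ8c, 0.00 and -0.03 in Dox, and 0.01 and 0.07 in untreated cells, a Dox difference of -0.05 (interval -0.18 to 0.07, adjusted p = 0.59). The 4μ8c differences of these 3 genes lay between -0.04 and 0.03, with intervals of -0.15 to 0.21 for Stx1a, -0.16 to 0.14 for Snap25 and -0.16 to 0.09 for Vamp2.

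Among the 13 synaptotagmins measured, Syt4 was the only call, beside 6.43% of all genes called with Dox. Syt7, a calcium sensor of the insulin granule, had 0.00 and 0.03 in Dox+4μ8c, 0.00 and -0.03 in Dox, and 0.0014 and 0.13 in untreated cells, with a Dox difference of -0.08 (interval -0.21 to 0.05). Its 2 probesets went opposite ways in experiment 2, at -0.46 and 0.14 for Dox over untreated cells. Syt12 had 0.00 and -0.06 in Dox+4μ8c, 0.06 and -0.63 in Dox, and -0.09 and 0.06 in untreated cells. The low value was that of the Dox array of experiment 2 alone, and the Dox difference of -0.27 had a limma adjusted p of 0.45.

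None of the 11 priming and docking genes was called by limma. At an unadjusted p under 0.05, 0 were higher and 2 lower with Dox, beside 1412 and 1064 of all 12603 genes. After 4μ8c there were 0 in either direction, beside 351 higher and 1064 lower of all genes. Cadps, the CAPS protein that primes granules, had 0.00 and -0.08 in Dox+4μ8c, -0.02 and -0.10 in Dox, and 0.18 and 0.08 in untreated cells. Untreated was highest within each experiment, with a Dox difference of -0.19 (interval -0.30 to -0.08, adjusted p = 0.069) and a 4μ8c difference of 0.02. Unc13a, the priming factor Munc13-1, was at exactly 0 throughout experiment 1 and between -0.05 and 0.01 in experiment 2, and Rims2, a RIM scaffold protein, had a Dox difference of -0.05 (interval -0.23 to 0.13). Stxbp3, or Munc18c, had the highest Dox+4μ8c over untreated difference of the group at 0.22 (adjusted p = 0.094).

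Cplx2, a complexin that clamps and then assists the SNARE bundle, had 0.04 and -0.02 in Dox+4μ8c, 0.00 and -0.62 in Dox, and 0.00 and 0.03 in untreated cells. As for Syt12, 1 array stood low, and the Dox difference of -0.32 was not past the test (limma adjusted p = 0.30).

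**Figure D4:**
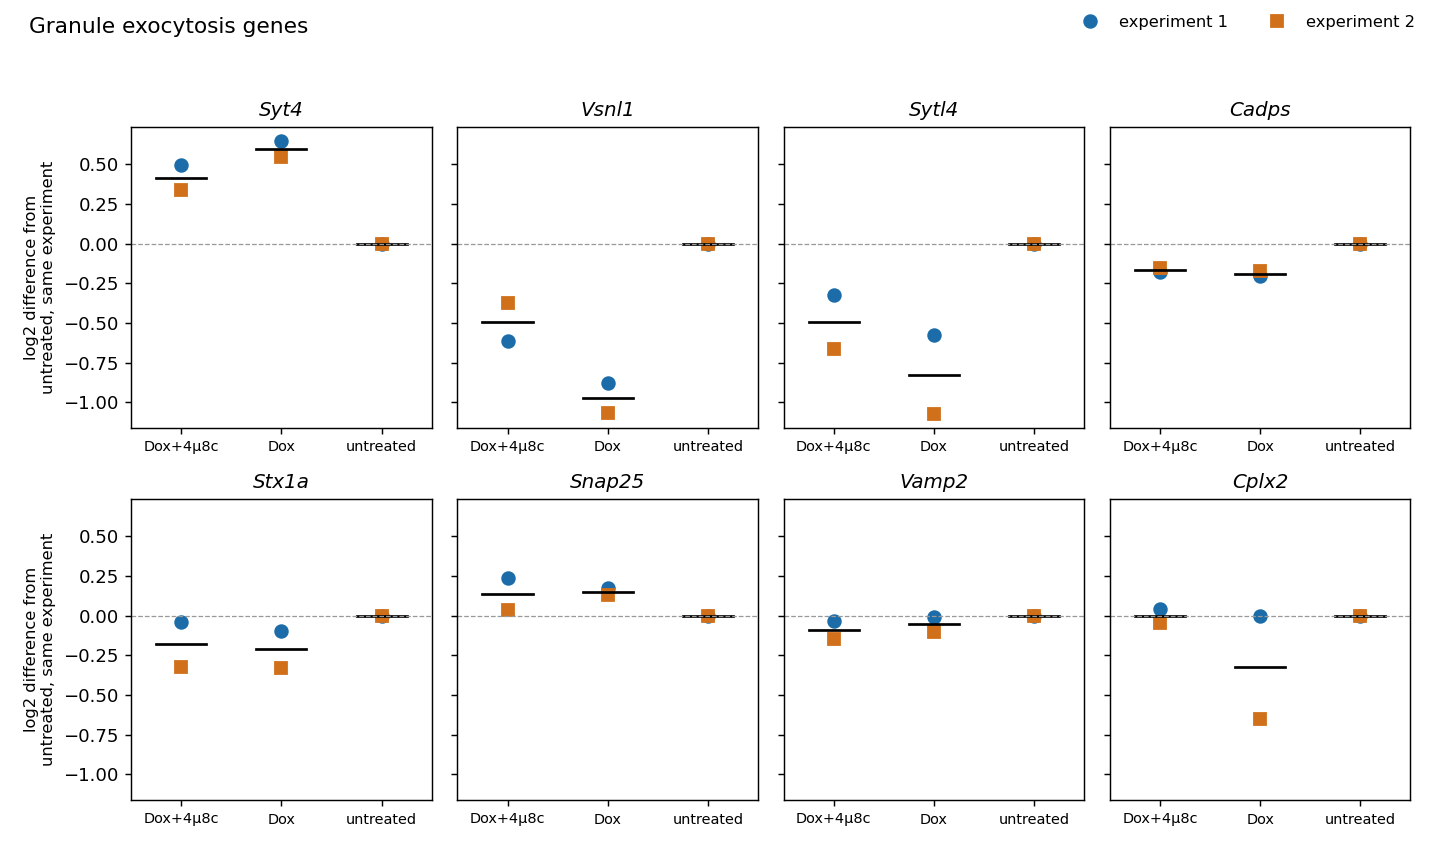
Log2 difference of each array from the untreated array of the same experiment for Syt4, Vsnl1, Sytl4, Cadps, Stx1a, Snap25, Vamp2 and Cplx2, with Dox+4μ8c left of Dox and untreated. Circles are experiment 1, squares experiment 2 and black bars the group mean. Syt4 and Snap25 lie above 0 in both experiments under both treatments, and Vsnl1, Sytl4, Cadps, Stx1a and Vamp2 lie below 0. Cplx2 departs from 0 in the Dox array of experiment 2.

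The 4 disassembly genes gave no call by limma in any comparison. At an unadjusted p under 0.05 with Dox, 0 were higher and 2 lower, beside 1412 and 1064 of all 12603 genes. Nsf, the ATPase that unwinds spent SNARE complexes, had -0.02 and -0.06 in Dox+4μ8c, 0.00 and -0.34 in Dox, and 0.02 and 0.22 in untreated cells, a Dox difference of -0.29 (adjusted p = 0.24) made up of -0.02 in experiment 1 and -0.56 in experiment 2. Napa, the adaptor α-SNAP, had -0.01 and -0.05 in Dox+4μ8c, 0.02 and 0.12 in Dox, and 0.00 and 0.02 in untreated cells (Dox difference 0.06, adjusted p = 0.56). None of the 11 SNAREs listed with endosomes and the trans-Golgi was called in any comparison, and their Dox differences ran from -0.08 to 0.25. At an unadjusted p under 0.05 in limma, 2 were higher with Dox, beside 1412 of all 12603 genes. After 4μ8c 2 were lower, beside 1064. Vamp4 and Stx17 were these genes in both comparisons. Stx17 had differences of 0.16 with Dox and -0.20 after 4μ8c (adjusted p = 0.17 and 0.20). Vamp4, a trans-Golgi SNARE, had -0.01 and -0.03 in Dox+4μ8c, 0.16 and 0.22 in Dox, and -0.07 and 0.03 in untreated cells. Dox was highest within each experiment, and the differences of 0.21 with Dox and -0.20 after 4μ8c had adjusted p of 0.07 and 0.15.

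The granule itself was followed through its other genes. Of 22 exocytosis partners outside the 62, 1 rose with Dox and 3 fell, beside 4.42% and 2.01% of all genes, with a median of -0.11 and 13 of 22 below 0 in both experiments, beside 24.8%. Those that fell were Rab3b, a Rab of secretory granules, by 0.47, the RIM-binding protein gene Rimbp2 by 0.40 and the synapsin gene Syn1 by 0.30 (limma adjusted p = 0.0055, 0.0085 and 0.018), and Cadps2 rose by 0.30 (adjusted p = 0.044). The calls of Rab3b and Cadps2 did not hold without the block (adjusted p = 0.055 and 0.14). None of the 22 was called after 4μ8c. At an unadjusted p under 0.05, 2 were higher and 2 lower, beside 351 and 1064 of all 12603 genes. Of 12 granule cargo and membrane genes 3 fell with Dox, beside 2.01% of all genes, the prohormone convertase gene Pcsk2 by 0.50, the islet amyloid gene Iapp by 0.25 and the granin gene Chgb by 0.24 (adjusted p = 0.0075, 0.041 and 0.033). Pcsk2 had 0.00 and -0.18 in Dox+4μ8c, -0.17 and -0.29 in Dox, and 0.26 and 0.28 in untreated cells, and was also lower in Dox+4μ8c than in untreated cells (-0.36, adjusted p = 0.045). Without the block the Dox call of Iapp (adjusted p = 0.052) and this last call of Pcsk2 (0.12) did not hold. None of the 12 was called between Dox+4μ8c and Dox, with 1 higher at an unadjusted p under 0.05, beside 351 of all 12603 genes.

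Some cell type markers also changed. Of 8 beta-cell markers 2 fell with Dox, beside 2.01% of all genes, Iapp and the transcription factor gene Mafa (-0.56, limma adjusted p = 0.009), and Mafa rose when 4μ8c was added (0.62, adjusted p = 0.019), beside 0.175% of all genes called higher. The values after 4μ8c were above 0 in both experiments for 8 of 8, with a median of 0.17, beside 19% of all genes. In experiment 1 27.8% of all genes were at exactly 0 in this comparison, against 0 of the 8. Of 4 markers of other islet cells 1 was called, the glucagon gene Gcg, beside 2.01% of all genes called lower with Dox. Gcg had 0.00 and -0.67 in Dox+4μ8c, -0.65 and -1.74 in Dox, and 1.39 and 0.67 in untreated cells. Its changes were -2.22 with Dox and 0.86 after 4μ8c (limma adjusted p = 0.00072 and 0.021, and 0.054 and 0.52 without the block). The other 3, Ppy, Irx2 and Ttr, had Dox differences of 0.13, 0.15 and -0.03, none past the test. The centred values give no level from which the presence of a marker could be read, fewer cells of a kind and less RNA per cell cannot be told apart, and the part of these markers in the changes of Sytl4, Vsnl1 and Syt4 was not tested.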

How the data were processed

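RNA from 6 cultures was hybridised to Affymetrix rat 3′ expression arrays. The submitters' processing notes name RMA, and the deposited values are log2 expression, centred per probeset. The median over the 3 arrays numbered 1 was 0 for 100% of probesets, and for 0.836% over those numbered 2, whose centring may include arrays not analysed here. No scanner files were used, so background and normalization were kept as the authors set them. Of 25476 probesets, 52 controls, 378 with several symbols and 7068 with no symbol were left out, and the 17978 with 1 symbol were averaged into 12603 genes.

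The R package limma 3.58.1 (R 4.3.3) was used to fit differences, by lmFit followed by eBayes, on all 6 arrays with the replicate number, which marks the experiment, as a block. Same-numbered arrays were taken as 1 experiment, since those numbered 1 were centred together in the deposited values, and the pairing comes from there. Residual degrees of freedom were 2 and prior degrees of freedom 4.25. P-values were adjusted by Benjamini-Hochberg over all genes, and the fit was tested on simulated data. Alternatives were the fit without the block, the median of a gene's probesets, arrays centred on their medians, probesets tested singly and each array left out. In another, probesets that can read more than 1 transcript (suffix _s_at, _x_at or _a_at) were left out. One more, with probesets at exactly 0 on all 3 arrays numbered 1 left out, was chosen after seeing the data. The genes and lists were chosen with earlier results of these data known. Genes named with values in each array were those past the test in any comparison, the exocytotic core and the ER-Golgi list, and others named beside them were chosen after their values were seen. Promoters are from RefSeq (GRCr8), with an entry for 50 of the 62 genes. The number of arrays limits the precision.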

Additional observations from a re-analysis of the deposited data

How the results depend on the processing

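With 2 arrays per group and 2 residual degrees of freedom, calls rest on the variance shared over genes. The number of the 62 genes called with Dox over untreated cells was 5, and it was 2 without the block of paired experiments and 4 to 12 with 1 array left out. Between Dox+4μ8c and Dox the count was 3, and it was 2 without the block, 0 with probesets tested singly (10 genes had an unadjusted p under 0.05 in limma) and 0 to 9 with 1 array left out. Between Dox+4μ8c and untreated cells the count was 1, and it was 0 without the block (10 at an unadjusted p under 0.05), 0 with probesets tested singly (12) and 0 to 4 with 1 array left out. Leaving out probesets that can read more than 1 transcript gave 5, 4 and 1. With Dox over untreated cells Stx5 was then added, and Sytl4, whose only probeset was removed, was no longer tested. Leaving out probesets tied at 0 gave 6, 3 and 1. The median of probesets and array centring gave 5, 3 and 1 each. The list difference ran from -0.27 to -0.18 with Dox and from 0.28 to 0.32 after 4μ8c with 1 array left out.

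Of the 60 values of the 20 genes named by rule, 20 changed sign under some alternative and 0 of these had been called. With tied probesets left out, Syt7 had 0.0706 with Dox, -0.0224 between Dox+4μ8c and Dox and 0.0482 between Dox+4μ8c and untreated cells, and between Dox+4μ8c and Dox Nsf had -0.0351 and Gosr1 0.0540. Gosr1 had 0.0014 there with the median of probesets and 0.0087 with arrays centred, and Stx5 had 0.0037 between Dox+4μ8c and untreated cells without its probeset that can read related transcripts. The remaining changes of sign came from leaving out 1 array. With Dox over untreated cells the ranges were -0.0032 to 0.0434 for Unc13a and -0.1662 to 0.0717 for Rims2. Between Dox+4μ8c and Dox they were -0.052 to 0.1133 for Stx1a, -0.1034 to 0.0772 for Snap25, -0.024 to 0.0845 for Syt7, -0.0101 to 0.0227 for Unc13a, -0.0157 to 0.2222 for Rims2, -0.0773 to 0.3369 for Nsf and -0.0463 to 0.0384 for Gosr1. Between Dox+4μ8c and untreated cells they were -0.1236 to 0.0479 for Bet1, -0.063 to 0.0204 for Stx18, -0.1126 to 0.0137 for Syt7, -0.1879 to 0.1815 for Cplx2, -0.0428 to 0.1547 for Rims2, -0.3531 to 0.0356 for Nsf, -0.09 to 0.0139 for Napa, -0.1794 to 0.1437 for Stx5, -0.0532 to 0.0699 for Gosr2 and -0.0563 to 0.0142 for Ykt6. The cause was not tested.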

Other observations

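Nsf was read by 3 probesets, and Dox over untreated differences were 0.00 and -0.71, 0.00 and -0.73, and -0.06 and -0.23 in experiments 1 and 2. Over all probesets, 57.2% stood at exactly 0 on at least 2 of the 3 arrays of experiment 1, against 0.42% in experiment 2.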
